A study of Bos taurus and Bos grunniens and Bubalus bubalis with 15 samples.

Results

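PI16 (peptidase inhibitor 16) and IGFBP6 (insulin-like growth factor binding protein 6) were followed in the longissimus dorsi muscle of 5 groups of bovids. Both were chosen by gene symbol from the annotation of the array, which gave each of them 1 probe set, so that no second probe set of either gene could be set against it. PI16 and IGFBP6 are 2 of the 9155 genes that the annotation named by a single symbol. The groups were Guangxi buffalo, Qinghai yak, and female, castrated male and intact male Qinchuan cattle, with 3 arrays each, labelled as biological replicates, and all animals were slaughtered at 36 months. The cattle were born within 30 days of one another, had a similar genetic background and were reared alike. For the yak and buffalo the sources used here give no sex, and for the castrated males no age at castration. Muscle was taken near the 12th section and frozen in liquid nitrogen, and 6 µg of total RNA per sample was labelled with biotin for an Affymetrix bovine array. The study asked how muscle transcripts differ between the sexes and castrates of cattle, and between cattle, yak and buffalo.

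PI16 belongs to the CAP family of secreted proteins, named for cysteine-rich secretory proteins, antigen 5 and pathogenesis-related 1, and is anchored to the cell surface. In single-cell studies of mouse and human tissue it marks fibroblasts of the adventitia and fascia, the sheaths around vessels and muscle, which are thought to act as a reserve for other fibroblasts. IGFBP6 is a secreted protein that binds insulin-like growth factor 2 (IGF2) in preference to IGF1 and limits its action, and fibroblasts of such sheaths are among the cells known to make it. In skeletal muscle these cells lie between the fibres and make up a small part of the tissue, so that each array measured RNA of whole muscle. A lower signal from such tissue can come from fewer cells of a type or from less RNA per cell, and these cannot be told apart here.

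The values are the deposited intensities, the brightness of a probe set on a linear scale, and no detection calls came with them. After 16 was added to each intensity, log2 medians ran from 6.71 to 6.81 over the arrays, and mean intensities from 304 to 364. Arrays of a group correlated at 0.952 to 0.990, and 0 pairs were identical. The tissue label was checked with 11 muscle fibre genes, which stood at or above the 98.6th percentile of every array. The ratio of the 3' to the 5' probe set of beta-actin, which rises as RNA degrades, was 1.42 to 1.73 in buffalo, 1.49 to 1.93 in yak, 1.22 to 1.33 in females, 1.24 to 1.27 in castrated males and 1.17 to 1.48 in intact males. The probes were designed on cattle sequence, so that in yak and buffalo a change in binding and a change in transcript level cannot be told apart.

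PI16 separated the intact males from the 4 other groups. Its intensity was 45.7, 43.5 and 49.3 in the 3 buffalo and 48.7, 45.0 and 44.0 in the 3 yak. In the 3 females it was 67.9, 67.2 and 80.4, in the 3 castrated males 82.4, 91.1 and 102, and in the 3 intact males 693, 819 and 657. Every intact male lay far above every other animal, the females and castrated males formed a low and narrow band, and the yak and buffalo lay below that band. The place of PI16 among the 24016 probe sets of its array ran the same way, from the 23.2nd to the 27.1st percentile in buffalo and the 26.4th to the 30.1st in yak. It was the 39.9th to the 46.0th percentile in females, the 47.2nd to the 53.5th in castrated males and the 89.6th to the 91.4th in intact males. PI16 passed the filter on dim probe sets, a mean above 6.42 on the log2 scale, through the intact males. Its mean was 6.93 over the 15 arrays and 6.28 over the 12 arrays without them, and whether it lay above background in yak and buffalo is not known without detection calls. A filter on those 12 arrays would have removed it. Each main test of PI16 below is therefore also given with no filter, over 24016 probe sets. There the intact males decide nothing about its entry. Its fits under the other settings kept the filter and so rest on its entry through the intact males.

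IGFBP6 was spread over all 5 groups. Its intensity was 173, 403 and 463 in the 3 buffalo and 616, 897 and 802 in the 3 yak. In the 3 females it was 897, 1081 and 898, in the 3 castrated males 1291, 1608 and 1313, and in the 3 intact males 3292, 3500 and 2641. The intact males were again the highest, the castrated males lay wholly above the females, and 1 yak reached the level of the lowest females. It stood between the 69.5th and 87.3rd percentile of its array in buffalo and the 88.4th and 92.1st in yak. The percentiles were 92.2 to 93.5 in females, 94.6 to 95.9 in castrated males and 97.6 to 98.3 in intact males. IGFBP6 was therefore well within the range of measured genes in all 5 groups.

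**Figure D1:**
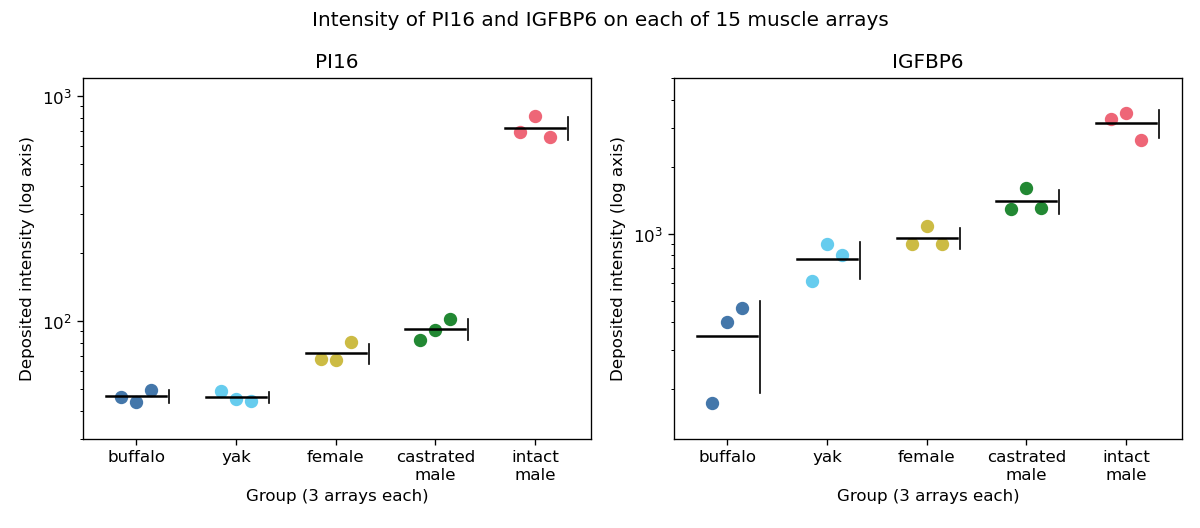
Deposited intensity of PI16 (left) and IGFBP6 (right) on a log axis, with 1 point per array, a horizontal line at the mean of the 3 arrays of a group and a vertical line of 1 SD on either side. The 3 intact males lie between 657 and 819 for PI16 and between 2641 and 3500 for IGFBP6, above every other array, and buffalo 1 lies apart from the other buffalo for IGFBP6.

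Both genes were proposed from the comparisons of castrated males and females with intact males, so these differences are given as a description, with no test. PI16 averaged 91.9 ± 9.83 in castrated males and 723 ± 85.1 in intact males (SD, n = 3 each), a ratio of 0.127. In females it averaged 71.8 ± 7.40, a ratio of 0.0994 to the same intact males. On the scale of log2(intensity + 16), which understates the change of dim genes, the differences were -2.77 ± 0.12 for castrated minus intact males and -3.07 ± 0.12 for females minus intact males (± SE of the fit). They ranked as the 12th and 23rd lowest of the 14409 probe sets tested. On that scale 0.84% of all probe sets were lower and 0.625% higher in castrated males by an adjusted p below 0.05, and 3.37% were lower and 2.12% higher in females. Probe sets lower with no overlap between the groups made up 13.5% in castrated males and 17.4% in females.

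IGFBP6 differed less. It averaged 1404 ± 177 in castrated males and 3144 ± 448 in intact males (SD, n = 3 each), a ratio of 0.447, and 959 ± 106 in females, a ratio of 0.305 to the intact males. The differences on the log2 scale were -1.15 ± 0.16 for castrated minus intact males and -1.69 ± 0.16 for females minus intact males (± SE), which ranked as the 261st and 200th lowest of the 14409. Leaving out each array in turn kept these differences between -1.27 and -1.07 for castrated males and between -1.81 and -1.61 for females. For PI16 the same ranges were -2.84 to -2.68 and -3.14 to -2.98. These ranges come from the contrasts on which the genes were chosen and lend the choice no support.

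Females and castrated males were compared directly, a contrast on which neither gene was chosen, although its 6 arrays entered the contrasts that were. PI16 averaged 71.8 ± 7.40 in females and 91.9 ± 9.83 in castrated males (SD, n = 3 each), a difference of -0.30 ± 0.12 (SE). IGFBP6 averaged 959 ± 106 in females and 1404 ± 177 in castrated males, a difference of -0.54 ± 0.16. In both genes every female lay below every castrated male, as did 8.56% of all probe sets. Neither difference passed, with unadjusted p of 0.0405 for PI16 and 0.00757 for IGFBP6 and adjusted p of 0.639 and 0.554 (limma, Benjamini-Hochberg over 14409 probe sets, two-sided). With no filter the adjusted p of PI16 was 0.721. Of all probe sets 0.00694% were called lower and 0.0139% higher in this contrast, and 1088 of the 14409 had an unadjusted p below 0.05. A difference of the size measured is therefore neither shown nor shown to be absent.

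Yak and buffalo were set against the mean of the castrated male and female cattle, since the intact males had served to choose the genes. The 2 contrasts share those 6 cattle arrays, which had also entered the choosing comparisons. The PI16 probe set read lower in yak, where it averaged 45.9 ± 2.48 (SD, n = 3), with a log2 difference of -0.65 ± 0.09 (± SE, adjusted p = 0.000298 by limma, and 0.000393 with no filter). It read lower in buffalo, where it averaged 46.2 ± 2.92 (SD, n = 3), with a difference of -0.64 ± 0.09 (adjusted p = 6.12e-05 by limma, and 8.36e-05 with no filter). Neither species overlapped the 6 cattle, and 14.7% of all probe sets in yak and 24.1% in buffalo were likewise lower with no overlap. Of all probe sets 11.6% were called lower in yak and 26.5% in buffalo. The PI16 difference ranked as the 939th lowest of the 14409 in yak and the 2546th in buffalo. An exact permutation test of 3 arrays against 6, which uses no filter, gave p = 0.0119 for each species, the smallest that it can give. That p is unadjusted and draws on the same lack of overlap, so it is no separate support. These differences lie near the dim end of the scale, where a level above background was not shown, and depend on the value added before log2. With 64 added in place of 16 both came to -0.40, and with 1 added to -0.81 in yak and -0.80 in buffalo. All of these passed, but in fits that PI16 entered through the intact males.

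IGFBP6 fell in buffalo but the test was not passed in yak. It averaged 346 ± 153 in buffalo (SD, n = 3), with a difference of -1.80 ± 0.24 from castrated males and females (± SE, adjusted p = 5.03e-05 by limma; exact permutation p = 0.0119). In yak it averaged 772 ± 143 (SD, n = 3), with a difference of -0.59 ± 0.24 and an adjusted p of 0.0984 by limma, and yak 2 at 897 overlapped the females. The unadjusted exact permutation test of the yak difference gave p = 0.0357, and a fit on the yak, castrated male and female arrays alone gave an adjusted p of 0.0133. Without yak 1, the lowest of the 3, the difference was -0.44 with an adjusted p of 0.344 by limma. The share of all probe sets that fell was 11.6% in yak and 26.5% in buffalo, and the share that rose was 10% in yak and 21.7% in buffalo, so that a call in buffalo is common on this array. Probe sets below the 6 cattle with no overlap made up 14.7% in yak and 24.1% in buffalo. IGFBP6 in buffalo was among them, and its permutation p draws on the same lack of overlap.

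Buffalo and yak were then compared with each other, the contrast in which no array had served to choose the genes. IGFBP6 fell in buffalo, at 346 ± 153 against 772 ± 143 in yak (SD, n = 3 each), a difference of -1.21 ± 0.28 (± SE, adjusted p = 0.00356 by limma), with the 3 buffalo below the 3 yak. PI16 did not pass, at 46.2 ± 2.92 in buffalo against 45.9 ± 2.48 in yak, a difference of 0.01 ± 0.10 with an adjusted p of 0.963 (0.966 with no filter), and the animals overlapped. In this contrast 22.7% of all probe sets fell and 19.5% rose, and 28.5% were lower with no overlap. The exact permutation test of 3 arrays against 3 cannot go below 0.1. The 3' to 5' ratio of beta-actin overlapped between buffalo and yak but was higher in both than in castrated males and females, and its part in the differences from cattle was not tested.

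Buffalo 1 was low for IGFBP6. Its intensity of 173 lay under the 403 and 463 of the other 2 buffalo, and the range of 1.35 on the log2 scale was wider than that of 98.0% of the probe sets tested in buffalo. Without buffalo 1 the difference from yak was -0.80 with an adjusted p of 0.00497, and that from castrated males and females was -1.39 with an adjusted p of 4.22e-05 (limma). In the other groups the IGFBP6 range was 0.53 in yak, 0.26 in females, 0.31 in castrated males and 0.40 in intact males. PI16 was even within each group, with ranges of 0.13 in buffalo, 0.11 in yak, 0.21 in females, 0.26 in castrated males and 0.31 in intact males. Each PI16 range was below the median range of all probe sets in the same group.

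**Figure D2:**
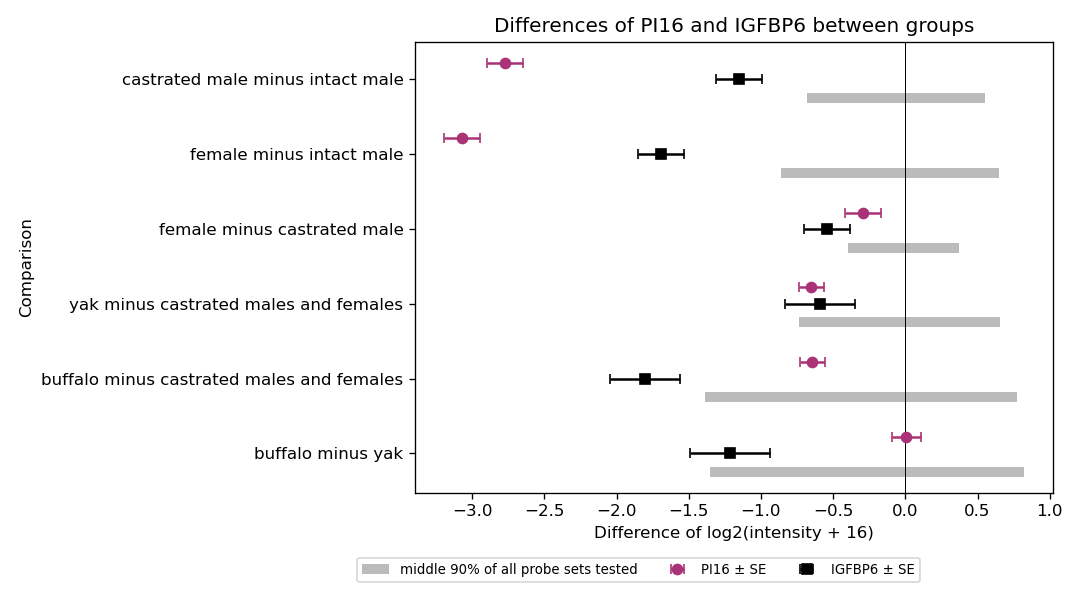
Difference of log2(intensity + 16) for PI16 (circles) and IGFBP6 (squares) in 6 comparisons, with bars of 1 SE on either side and a grey band for the middle 90% of the 14409 probe sets tested. The 2 differences from intact males chose the genes and carry no test. PI16 is at -2.77 and -3.07 there and at 0.01 between buffalo and yak, where IGFBP6 is at -1.21.

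In order of level, PI16 ran from buffalo and yak, which overlapped, through females and castrated males, which did not overlap but did not pass the test, to intact males. IGFBP6 ran from buffalo through yak and females, which overlapped, and castrated males to intact males. The step between castrated and intact males thus differed in size between the genes while the order of the cattle groups was the same. The genes next to PI16 and IGFBP6 in the RefSeq annotation of the ARS-UCD2.0 assembly were looked at next among cattle. Of the 4 nearest annotated neighbours of PI16, C23H6orf89, MTCH1 and FGD2 were tested, with castrated minus intact male differences of -0.17, -0.22 and -0.88 and adjusted p of 0.551, 0.233 and 0.146 by limma. FGD2 differed by -1.01 between females and intact males, with an adjusted p of 0.0697. Of the 4 of IGFBP6, SOAT2 and SPRYD3 were tested, with differences of -0.07 and -0.11 and adjusted p of 0.795 and 0.635. PPIL1, CSAD and TNS2 had no probe set named for them.

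Some other markers of adventitial fibroblasts fell in castrated males and females against intact males. The marker lists were chosen with earlier results of these data known. In these 2 comparisons the arrays are also those on which the 2 genes were chosen, so the counts are no independent support. Of 26 adventitial markers besides the 2 genes, 20 had a probe set and 18 were tested. In castrated males 3 of the 18 fell and 0 rose, with a median difference of -0.65 against -0.00 over all probe sets, and in females 8 fell and 0 rose, with a median of -0.75 against 0.01. Among all probe sets 0.84% fell and 0.625% rose in castrated males, and 3.37% fell and 2.12% rose in females. SFRP4, a secreted antagonist of Wnt signals, averaged 133 ± 54.8 in castrated males, 92.6 ± 24.2 in females and 876 ± 476 in intact males (SD, n = 3 each). It fell in both comparisons, with log2 differences of -2.52 in castrated males and -2.92 in females (adjusted p = 0.0245 and 0.0115 by limma). FBLN1, a fibulin of elastic fibres and basement membranes, fell with differences of -1.44 and -1.39 (adjusted p = 0.0326 and 0.0236), and OGN, the small proteoglycan osteoglycin, with -1.17 and -1.25 (adjusted p = 0.0373 and 0.0198). GSN, the actin-severing protein gelsolin, fell in females with a difference of -0.83 (adjusted p = 0.0225).

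These counts moved with single arrays. Without intact male 3 the count in castrated males was 7, without intact male 1 it was 1, and without intact male 2 or any 1 castrated male it was 0. In females the count was 4 without female 1, 2 without female 2, 0 without female 3 and 1 without intact male 2. The summed intensity of the 20 markers on the array was 12241 to 13791 in castrated males, 10430 to 13314 in females and 19592 to 28148 in intact males, with no overlap between intact males and the other cattle. Among all probe sets 13.5% in castrated males and 17.4% in females were lower with no overlap. A linear sum weighs bright genes most, such as GSN and MFAP5, with highest group means of 4714 and 4409. DPP4, a defining surface marker of these fibroblasts in mouse, was too dim to be tested, with group means between 28.7 and 55.4. SEMA3C, CD248, COL14A1, FBLN2, CREB5 and GFPT2 had no probe set named for them. In females against castrated males 0 of the 18 passed by limma and 1 was lower at an unadjusted p below 0.05, with a median of -0.07. Among all probe sets 0.0208% were called there.

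Genes of other fibroblast lists, collagens among them, fell in the same comparisons. Of 17 general fibroblast markers tested, 8 fell in castrated males and 13 in females, among them S100A4, a calcium-binding protein, with -1.82 and -2.33 (adjusted p = 0.00257 and 0.000319 by limma) and SERPINF1, a secreted serpin, with -2.09 and -2.62 (adjusted p = 0.00757 and 0.00156). Of 13 markers of activated fibroblasts 6 fell in castrated males and 7 in females, led by the chains of collagen I, COL1A2 with -2.76 and -3.18 (adjusted p = 0.000263 and 7.56e-05) and COL1A1 with -2.92 and -2.99 (adjusted p = 0.000581 and 0.000319). Of 11 markers of interstitial fibroblasts 1 fell in each, the chemokine CXCL12, with -0.94 and -0.71 (adjusted p = 0.0207 and 0.0326). In none of these 3 lists did a gene rise in either comparison. Among all probe sets 0.84% fell in castrated males and 3.37% in females, and nothing is read from the count of 1 in the interstitial list. The median differences in castrated males and in females were -1.26 and -1.32 for the general, -0.85 and -1.86 for the activated and -0.30 and -0.38 for the interstitial list.

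Single arrays moved these counts too. In castrated males the general list gave 13 without intact male 3, 3 without intact male 2 or castrated male 1 or 2, and 2 without castrated male 3, and the activated list gave 3 without intact male 2 or castrated male 2 or 3. In females the general list gave 5 without female 2, 4 without female 3 and 6 without intact male 2, and the activated list gave 4 without any 1 of those 3 arrays. For the interstitial list the count of 1 became 0 in castrated males without intact male 2 or castrated male 1 or 3, and in females without intact male 2 or any 1 female.

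The closest relatives of the 2 genes were compared by family. Of 11 other CAP family genes 4 had a probe set and 2 were tested. GLIPR2, a CAP protein of the Golgi membrane, averaged 290 ± 69.6 in females and 1279 ± 762 in intact males (SD, n = 3 each), and fell with a difference of -1.95 (adjusted p = 0.0262 by limma). CRISPLD2, a secreted CAP protein, averaged 576 ± 142 in females and 1376 ± 333 in intact males, and fell with a difference of -1.23 (adjusted p = 0.0272). Neither passed in castrated males by limma, where both had an unadjusted p below 0.05. Among all probe sets 3.37% fell in females and 0.84% in castrated males. In females 0 of the 2 passed without female 1, 2 or 3 or without intact male 2, and 1 of 2 without intact male 1. In castrated males 1 of the 2 passed without intact male 3.

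In the insulin-like growth factor system around IGFBP6 no gene passed among cattle. Of 20 genes 15 had a probe set and 10 were tested, and 0 passed in castrated males or females against intact males or in females against castrated males by limma, with medians of -0.11, -0.06 and 0.00. At an unadjusted p below 0.05 there were 1, 1 and 0. In the same order 1.46%, 5.5% and 0.0208% of all probe sets were called. A count of 0 among 10 lies near these shares and is no result about the family. Without intact male 3, 2 of the 10 fell in females. IGF2, the main partner of IGFBP6, averaged 735 ± 280 in castrated males, 863 ± 164 in females and 844 ± 332 in intact males (SD, n = 3 each). IGFBP2 and IGFBP5 were too dim to be tested, with group means of 30.2 to 63.6 and 49.5 to 72.5.

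**Figure D3:**
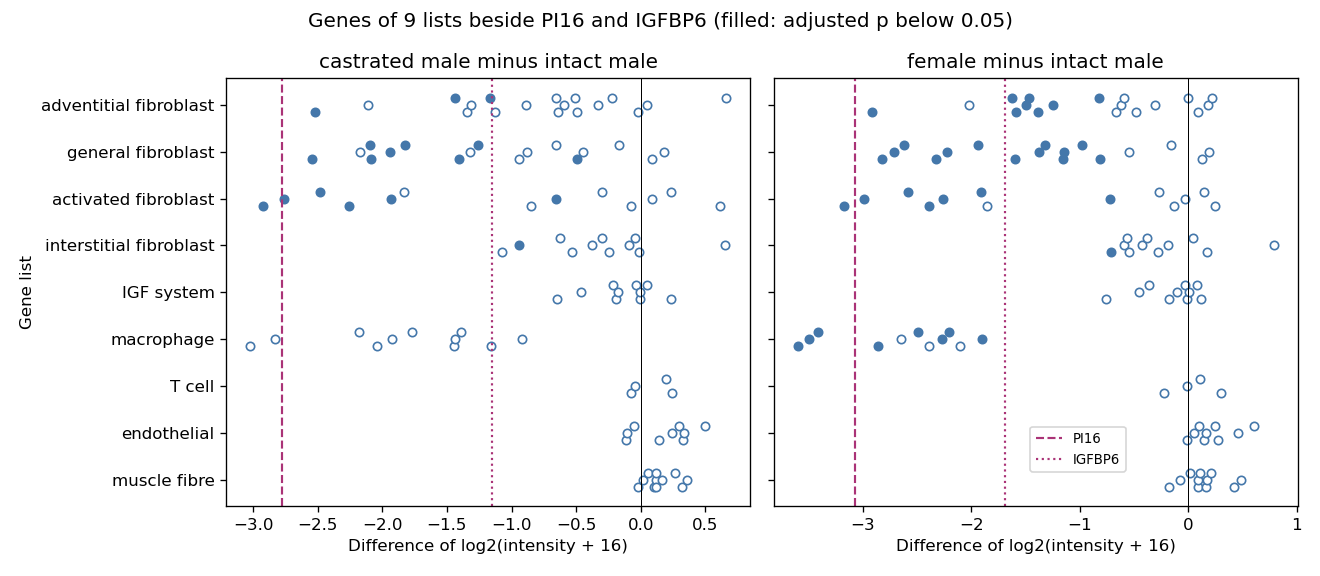
Differences of log2(intensity + 16) for the genes of 9 lists in castrated minus intact males (left) and females minus intact males (right), with 1 circle per gene, filled where the adjusted p was below 0.05, and lines for PI16 (dashed) and IGFBP6 (dotted). Filled circles of the adventitial, general and activated fibroblast lists lie left of 0, and the insulin-like growth factor, T cell, endothelial and muscle fibre lists hold none. Of all probe sets 1.46% (left) and 5.5% (right) were called.

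Adventitial markers were counted between species against the shares of all probe sets that fell, 26.5% in buffalo and 11.6% in yak against castrated males and females and 22.7% in buffalo against yak. In buffalo 12 of the 18 fell and 1 rose against castrated males and females, with a median of -0.65 against -0.02 over all probe sets. CLEC3B, the plasminogen-binding protein tetranectin, fell with a difference of -1.21, DPT, the matrix protein dermatopontin, with -1.94, OGN with -1.18 and FBN1, the microfibril protein fibrillin-1, with -1.44 (adjusted p = 2.42e-05, 0.000144, 0.000118 and 0.000359 by limma). In yak 3 of the 18 fell and 0 rose, with a median of -0.27, namely OGN with -0.92, the microfibril-associated MFAP4 with -0.42 and DPT with -0.97 (adjusted p = 0.00276, 0.0126 and 0.0311). The 3 in yak lie near the share of all probe sets, and became 1 without yak 1 or yak 2. Between buffalo and yak 5 fell, near that share too, and 1 rose, with a median of -0.41, and the 5 became 2 without buffalo 1 and 3 without buffalo 2. MFAP5, a microfibril protein of sheath fibroblasts, fell in buffalo against yak with a difference of -1.18 and CLEC3B with -0.92 (adjusted p = 0.0146 and 0.000907).

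The insulin-like growth factor system moved in both directions in buffalo. Of the 10 tested, 4 fell and 2 rose in buffalo against castrated males and females, with a median of -0.27, where 26.5% of all probe sets fell and 21.7% rose, so that nothing is read from the counts themselves. IGF2, the ligand, averaged 161 ± 15.5 in buffalo, 713 ± 131 in yak, 863 ± 164 in females and 735 ± 280 in castrated males (SD, n = 3 each), and fell with differences of -2.16 from the cattle and -2.03 from yak (adjusted p = 9.84e-06 and 8.01e-05 by limma). IGFBP7, a related secreted protein of vessel walls, averaged 886 ± 62.5 in buffalo, 2015 ± 275 in yak, 3146 ± 389 in females and 3121 ± 272 in castrated males, and fell with -1.80 and -1.17 (adjusted p = 8.07e-08 and 1.77e-05). IGF2R, the receptor that clears IGF2, fell with -1.19 and -0.63 (adjusted p = 7.25e-05 and 0.0173), while IGF1R, the signalling receptor, rose against the cattle with a difference of 0.57 (adjusted p = 0.00126). The 2 that rose became 1 without buffalo 1 or 2, castrated male 3 or female 3.

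The same 10 genes were counted in the other species contrasts, where 11.6% of all probe sets fell in yak and 22.7% in buffalo against yak. In yak 2 of the 10 fell, IGFBP7 with -0.64 and IGF2R with -0.55 (adjusted p = 0.00194 and 0.0304), and 0 rose, with a median of -0.09. The 2 became 1 without yak 2 or 3, castrated male 1 or female 1. In buffalo against yak 4 of the 10 fell and 0 rose, with a median of -0.11, and the 4 became 2 without buffalo 3 or yak 1. In that contrast 1 gene rose without any 1 buffalo or without yak 1. Of the CAP family, CRISPLD2 fell against castrated males and females, with -0.98 in buffalo and -1.35 in yak (adjusted p = 0.00133 and 0.000562), and 0 of the 2 passed in buffalo against yak.

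The other fibroblast lists were counted against the same shares. Of 17 general markers 8 fell in buffalo and 6 in yak against castrated males and females, with DCN, the collagen-binding proteoglycan decorin, at -1.01 and -0.65 (adjusted p = 3.14e-06 and 0.00058 by limma), and 3 fell in buffalo against yak. The 6 in yak became 3 without yak 1. Of 11 interstitial markers 8 fell and 1 rose in buffalo, 6 fell in yak, and 3 fell and 1 rose in buffalo against yak, and 1 rose in yak without castrated male 2. Of 13 activated markers 4 fell and 1 rose in buffalo, 5 fell and 1 rose in yak, and 3 fell in buffalo against yak. The 4 in buffalo and the counts of the 3 lists in buffalo against yak lie near the shares of all probe sets, 26.5% and 22.7%, and are no result about these markers. The 5 in yak became 2 without yak 1, the 1 in buffalo became 2 without female 1, and the 1 in yak became 0 without any 1 yak, castrated male 3, or female 2 or 3. Between buffalo and yak 2 activated markers rose without buffalo 1 and 1 without yak 3.

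Markers of other cells were read beside these values. The summed level of 11 macrophage markers was 2429 to 4009 in castrated males, 1304 to 2425 in females and 6042 to 29649 in intact males, where intact male 1 was the highest and intact male 3 the lowest. It thus differed 4.91-fold among the intact males, while PI16 differed 1.25-fold and IGFBP6 1.33-fold among them, both lowest in intact male 3 and highest in intact male 2. Of the 11, 0 passed in castrated males by limma, where 11 were lower at an unadjusted p below 0.05, and 8 fell in females, CTSS and C1QA among them with -2.49 and -2.86 (adjusted p = 0.02 and 0.0235). Among all probe sets 0.84% fell in castrated males and 3.37% in females. In buffalo the macrophage sum was 1042 to 1452 and 4 of the 11 fell against castrated males and females, near the 26.5% of all probe sets that fell there. In yak the sum was 1602 to 1739 and 0 fell, where 11.6% of all probe sets fell. The sum of 10 tendon and deep connective tissue markers was 2978 to 3715 in castrated males, 1693 to 3949 in females and 4483 to 11007 in intact males, with intact male 3 again the lowest of its group, and 1 of the 7 tested, FMOD, fell in each comparison. The part of macrophages or of tendon in the differences of PI16 and IGFBP6 was not tested.

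T cells, some of which are known to carry PI16 in human blood, were read through 13 markers on the array. The summed level of these was 867 to 1024 in castrated males, 847 to 870 in females and 864 to 933 in intact males, and 0 of the 4 tested passed in any of the 6 comparisons by limma, with at most 1 at an unadjusted p below 0.05 in each. The rest of the 13 were too dim to be tested, so a flat sum cannot show whether T cells differed. Of 9 endothelial and 8 smooth muscle markers 0 passed in the 3 cattle comparisons, with at most 1 of each list at an unadjusted p below 0.05, and 3 of each fell in buffalo against castrated males and females. Of 9 adipocyte markers 1, the secreted factor CFD, fell in castrated males and in females against intact males, with -1.25 and -1.34 (adjusted p = 0.0387 and 0.0203 by limma), and 4 fell in yak and 3 fell and 1 rose in buffalo. Of 3 nerve markers 0 passed among cattle, with at most 1 at an unadjusted p below 0.05, 1 fell in yak and 1 rose in buffalo. Of the 11 fibre genes 0 passed among cattle, again with at most 1 at that p, and 3 fell in yak and 6 fell and 1 rose in buffalo. Of all probe sets 11.6% fell and 10% rose in yak, and 26.5% fell and 21.7% rose in buffalo. The endothelial, smooth muscle and adipocyte counts in buffalo lie near those shares and are no result about these markers. Among cattle 1.46% of all probe sets were called in castrated males and 5.5% in females against intact males. Between females and castrated males 0.0208% were called. Counts of 0 among cattle lie near these shares and do not show that these cells were unchanged.

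The genes whose profile over the 15 arrays lay closest to each of the 2 were sought among 7138 others. Each profile was centred on its own mean, and closeness is the mean absolute difference on the log2 scale, so that it reflects the size of the steps as well as their order. The intact males set most of it, and no test was made. Closest to PI16 were FMOD, a collagen-binding proteoglycan, at 0.26, COL1A1 at 0.29, SERPINF1 at 0.32, FAP, a surface protease of fibroblasts, at 0.36 and the collagen V chain COL5A2 at 0.37. FMOD had intensities of 59.7, 65.1 and 67.7 in buffalo, 75.6, 105 and 81.5 in yak, 93.4, 136 and 151 in females, 208, 192 and 143 in castrated males and 983, 1270 and 630 in intact males.

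Closest to IGFBP6 were KDELR3, a receptor that returns proteins to the endoplasmic reticulum, at 0.24, the cyclophilin PPIC at 0.25, the membrane protein MYADM at 0.26, the matrix protease MMP2 at 0.27 and MFAP5 at 0.29. KDELR3 had intensities of 31.2, 73.5 and 99.3 in buffalo, 97.5, 114 and 113 in yak, 139, 156 and 149 in females, 181, 219 and 185 in castrated males and 847, 603 and 378 in intact males. Like IGFBP6 it was lowest in buffalo 1. IGFBP6 itself was 147th in closeness to PI16, at 0.65, and PI16 was 643rd in closeness to IGFBP6. These places were 75th and 4214th over the 9 cattle arrays, and 5238th and 791st over the 12 arrays without intact males. Over the 9 cattle arrays the 5 closest to PI16 were COL1A2, COL1A1, FMOD, SERPINF1 and PTN, and to IGFBP6 DKK3, GLT8D2, FKBP11, KDELR3 and ECM1. Over the 12 arrays without intact males, a choice made after seeing the data, the 5 closest to PI16 were POMGNT2, ECI1, SACM1L, ACBD5 and INO80E, at 0.09 to 0.11, none of which is a collagen or proteoglycan gene. For IGFBP6 they were TAX1BP3, TPM1, TMEM33, RNF19B and KDELR3, at 0.21 to 0.22.

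**Figure D4:**
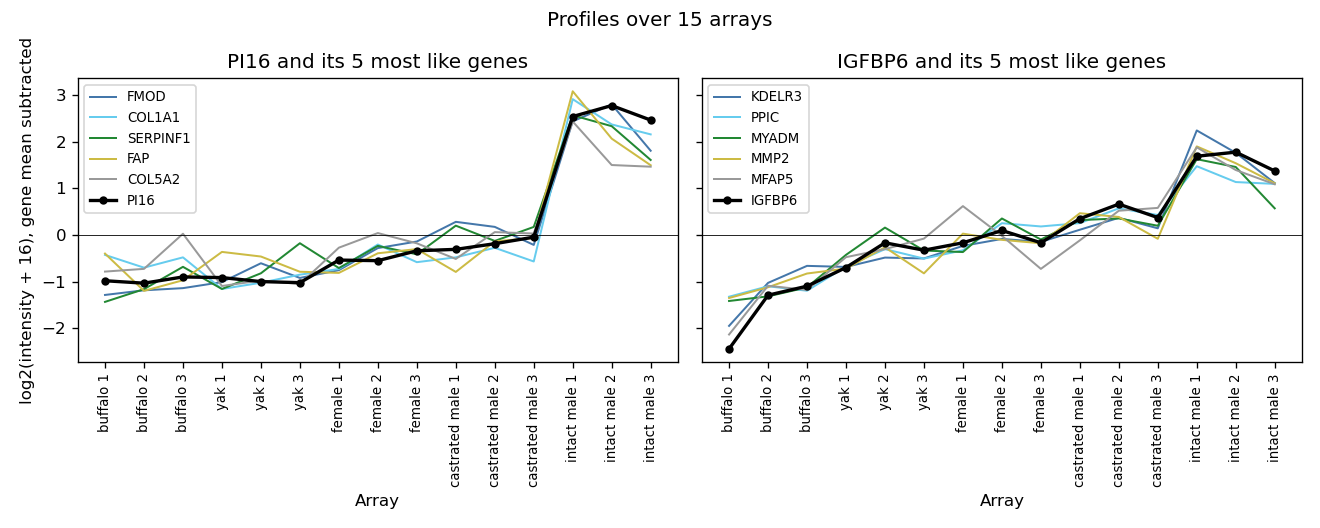
Profiles of PI16 (left) and IGFBP6 (right) over the 15 arrays as thick black lines, each with its 5 closest genes, on the scale of log2(intensity + 16) with the mean of each gene subtracted. PI16 and its 5 genes stand high in the intact males alone, while IGFBP6 and its 5 genes spread more evenly over the groups.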

How the data were processed

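Intensity values of 24128 probe sets on 15 Affymetrix bovine arrays were used on a linear scale as deposited; the sources used here name no software, background step, normalisation or genome build, and no depth exists for arrays, so that the 3 arrays per group limit the precision. Per the labels, the arrays of a group are biological replicates. Gene symbols came from the platform annotation, which named 13292 of 24016 non-control probe sets by 1 symbol and 86 by several, with 10638 unlisted. A match on Entrez identifiers reached 13263 and changed 0 symbols.

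The value 16 was added before log2, and the 14409 probe sets with a mean above the 40th percentile (6.42) were tested with limma 3.58.1 in R 4.3.3 (empirical Bayes with a trend, Benjamini-Hochberg, two-sided, threshold 0.05). Cattle contrasts were fitted on 9 arrays and the others on 15. A gene stood for its brightest probe set in the 14 lists. Genes named are the members, per list and contrast up to 4 called genes with the smallest p, and the 5 closest profiles per member; genomic neighbours, dim genes, genes with no probe set and IGF2 among cattle are named beside that rule. The members and lists were chosen with earlier results of these data known. The fit was tested on simulated data. Alternatives changed the value added, filter, normalisation, trend, array weights, arrays fitted, each array, the replicate block and the cattle groups compared. Replicate numbers do not pair the arrays. Promoter motifs were not analysed here, and no sequence was used.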

Additional observations from a re-analysis of the deposited data

How the results depend on the processing

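The difference of PI16 between castrated and intact males was -2.96 with 1 and -2.33 with 64 added before log2 and -2.93 with array weights, and that between females and intact males was -3.31 and -2.53 with 1 and 64 added. The difference of IGFBP6 in yak passed with array weights (-0.54, adjusted p = 0.0256 by limma), in the fit on the compared groups alone (-0.59) and in the exact permutation test (p = 0.0357). Against the mean of the 3 cattle groups it was -1.06. That setting holds the intact males on which the genes were chosen, so it is no test. It is counted among the 4 of 20 alternatives that passed, as is the permutation test, whose p is unadjusted. The main fit, judged by its adjusted p, had an unadjusted p of 0.0294 by limma. The highest adjusted p among the alternatives was 0.344 by limma. Against the 3 cattle groups PI16 came to -1.62 in yak and -1.62 in buffalo. PI16 in yak and in buffalo passed in 19 of 19 alternatives each, counting the settings that keep it in the test. All of these but the fit with no filter and the exact permutation test took it in through the intact males, so the count is no support. IGFBP6 passed in 20 of 20 for buffalo and 15 of 15 for buffalo minus yak. The counts against castrated males and females include the mean of the 3 cattle groups and the unadjusted permutation test. In females minus castrated males 0 of 15 passed for PI16 and 0 of 16 for IGFBP6. A filter on the 12 arrays without intact males, added after seeing the data, removed PI16 and gave it no value, so its tests rest on the fit with no filter. The exact permutation test of PI16 draws on the lack of overlap already given and adds no separate support.

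Probe sets called in castrated minus intact males numbered 211, but 3533 with array weights, 718 with 15 arrays fitted and 37 with the compared groups alone, and 41 (without castrated male 3) to 995 (without intact male 3) with 1 array left out. In females minus intact males they numbered 792, but 5069, 1911 and 110 in the same order of settings and 77 (without female 2) to 2194 (without intact male 3) with 1 array left out. In both, each array but intact male 1 moved the count by over 1.5 times. In females minus castrated males the 3 became 14, 5 and 9, and 0 with 1 added. In yak the 3118 became 5751 with array weights and 1656 (without yak 1; 1774 without yak 2) to 3033 with 1 array left out, and in buffalo the 6942 became 10944 without a filter. Quantile normalisation changed the share of buffalo calls against castrated males and females that rose to 55.0%, from 45.0% as deposited. It turned the uncalled PI16 difference between buffalo and yak to -0.11, in a fit that kept the filter. Of the list counts, 120 moved by over 1.5 times and 1068 did not.

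The same-numbered arrays of 2 groups correlated at -0.326 to 0.145 in their deviations, with 6 of 30 above 0.1, so the numbers were not taken to pair them. With the replicate number as a block the difference of PI16 in yak was -0.65, in a fit that it entered through the intact males. That of IGFBP6 in buffalo minus yak was -1.21 (adjusted p = 0.00235 by limma), and no call of either gene changed.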
